A study of Mus musculus with 2 samples.

Results

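Transcripts of 10 genes that make, activate or transmit transforming growth factor beta (TGF-beta) were followed in sorted cells of Foxp3Cre-YFP mice. The genes were taken by symbol for their known roles in the pathway, 10 of the 27998 genes in the deposited lists. The rule that names them states no measured value, but the choice was made with earlier results of these data known. They are Tgfb1, Itgav and Itgb8 (activation), Tgfbr1 and Tgfbr2 (receptors), Smad3 and Smad4 (signal transducers), and Smad7, Ski and Skil (inhibitors). All 10 had UMIs in both tissues, and each reached the minimum of 50 UMIs in the sum of the libraries.

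One library came from B16 melanoma, a transplanted tumour of C57BL/6 mice, taken at day 14, and the other from lymph node of unchallenged mice. All mice were C57BL/6, 5 to 8 weeks old, and carried the Foxp3Cre-YFP allele, in which the locus of the regulatory T cell (Treg) transcription factor Foxp3 drives Cre recombinase and a yellow fluorescent protein. The series text calls the mice WT, and the labels name no other altered gene. The cells were sorted, by a gate that the sources used here do not name, and neither do they say how many mice each library holds. The 10x Chromium 3' chemistry counts each captured transcript once through a unique molecular identifier (UMI). With 1 library per tissue there is no replicate, no test was made, and every interval is a 95% interval that covers counting error only.

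The cell rule kept 1457 tumour barcodes and 2202 lymph node barcodes, with 16669263 and 10681101 UMIs, and medians of 8766 UMIs per tumour cell and 4100 UMIs per lymph node cell. They shared 1 barcode sequence. The Treg list (Foxp3, Il2ra, Ikzf2, Ctla4, Tnfrsf18 and Tnfrsf4) summed to 4415 CPM in tumour (UMIs of a gene scaled to the total of all cells of the library) and 1738 CPM in lymph node, and the T cell list to 3927 CPM in tumour and 3425 CPM in lymph node. A UMI of Cd3e was found in 97.3% of tumour cells and 87.5% of lymph node cells, and one of Foxp3 itself in 16.7% of tumour cells and 9.58% of lymph node cells. Transcripts of B16 melanoma cells (Pmel, Dct, Mlana, Tyrp1 and Tyr) summed to 32.9 CPM in tumour and 0.0936 CPM in lymph node, and reached 1201 CPM in the tumour barcodes with 1 to 100 UMIs, which hold free RNA. Macrophage transcripts summed to 8.64 CPM in tumour, where 6 of 7 markers were detected and Adgre1 was at 0, and to 2.06 CPM in lymph node, where 3 of 7 were detected. Cells with 3 or more UMIs of a 10-gene mitosis list made up 39.7% of tumour cells and 3.5% of lymph node cells.

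TGF-beta is secreted in a latent complex, in which the mature cytokine is held by its own propeptide. Integrins made of the alpha-v chain (Itgav) and a beta chain such as beta-8 (Itgb8) bind that propeptide and release the cytokine, and Treg cells are known to hold the latent complex on their surface through the anchor GARP (Lrrc32). The free cytokine brings the type II receptor (Tgfbr2) and the type I receptor (Tgfbr1) together, the type I kinase phosphorylates SMAD2 and SMAD3, and these enter the nucleus with SMAD4. SMAD7 blocks the type I receptor, SKI and SnoN (Skil) hold SMAD complexes in a repressed state, and Smad7 and Skil are themselves known targets of the pathway.

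The promoters of the 2 members with the widest ratios between the tissues, Itgav and Tgfbr1, are shown, and that of Itgb8 beside them because its product pairs with that of Itgav. Each window runs from 250 bases before to 50 bases after the start in RefSeq's table for GRCm38.p6, which held a promoter for 7 of the 10 members. It held 2 promoters for Tgfbr1, and only the first of them was searched and is shown. Capitals mark CAGAC, the core of the SMAD binding element, on either strand.
Itgav, chr2:83724147-83724446, plus strand: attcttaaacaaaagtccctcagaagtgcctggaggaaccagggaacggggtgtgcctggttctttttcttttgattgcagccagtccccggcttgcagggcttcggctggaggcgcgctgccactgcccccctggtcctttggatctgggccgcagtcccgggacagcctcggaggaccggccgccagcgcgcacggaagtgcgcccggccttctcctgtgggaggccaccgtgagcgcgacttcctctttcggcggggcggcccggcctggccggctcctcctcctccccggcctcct
Itgb8, chr12:119238227-119238526, minus strand: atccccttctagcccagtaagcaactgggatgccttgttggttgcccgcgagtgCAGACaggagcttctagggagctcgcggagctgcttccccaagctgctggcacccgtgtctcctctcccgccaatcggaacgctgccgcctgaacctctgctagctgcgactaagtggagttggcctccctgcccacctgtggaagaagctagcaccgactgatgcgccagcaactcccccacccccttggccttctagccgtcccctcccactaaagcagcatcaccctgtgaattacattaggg
Tgfbr1, chr4:47352972-47353271, plus strand: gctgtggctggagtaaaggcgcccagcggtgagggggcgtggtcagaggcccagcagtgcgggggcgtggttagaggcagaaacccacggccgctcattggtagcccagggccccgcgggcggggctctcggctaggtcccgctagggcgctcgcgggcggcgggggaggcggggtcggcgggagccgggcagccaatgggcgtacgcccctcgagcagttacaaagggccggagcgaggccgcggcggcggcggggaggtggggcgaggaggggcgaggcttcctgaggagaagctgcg
CAGAC or its complement GTCTG was found once, in Itgb8, starting at position 55 of the window. The same letters stand in 49.6% of the 32851 promoters of the table. The palindrome GTCTAGAC (in 0.213% of all promoters), the AP-1 motif TGANTCA (7.81%) and ACGTG with its complement CACGT (19.6%) were in none of the 3 windows. With 1 match in all, no motifs overlapped. G and C made up 67.3% of the Itgav window, 60.7% of the Itgb8 window and 74.7% of the Tgfbr1 window.

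As sums, the activation genes were higher in tumour and the receptor genes lower. Summed over Tgfb1, Itgav and Itgb8, the level was 347 CPM in tumour and 230 CPM in lymph node, a ratio of 1.51 (1.44 to 1.59). Tgfb1 alone held 4370 of the 5788 UMIs of this sum in tumour and 2196 of the 2454 in lymph node. Summed over Tgfbr1 and Tgfbr2 the level was 49.4 CPM in tumour and 106 CPM in lymph node, 2.15-fold lower in tumour (1.97 to 2.36). By gene, Tgfbr1 was 3.93-fold lower and Tgfbr2 1.26-fold lower. Smad3 and Smad4 together gave 20.5 CPM in tumour and 26.5 CPM in lymph node, 1.30-fold lower (1.10 to 1.52). The inhibitors Smad7, Ski and Skil gave 149 CPM in tumour and 174 CPM in lymph node, 1.17-fold lower (1.10 to 1.24).

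Gene by gene, 1 member was at least 2-fold higher in tumour (Itgav), against 13.2% of the 9976 genes that reached 50 UMIs in both libraries together. At least 2-fold lower were 2 members (Tgfbr1 and Ski), against 7.7% of all genes, and the remaining 7 lay between these marks. The whole interval lay beyond 2-fold for Itgav, where 8.8% of all genes did so upward, and for Tgfbr1, where 4.17% did so downward. The median log2 ratio was 0.04 over the members and 0.14 over all genes tested. The median of the list was thus near that of all genes, and its members lay on both sides of it.

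**Figure D1:**
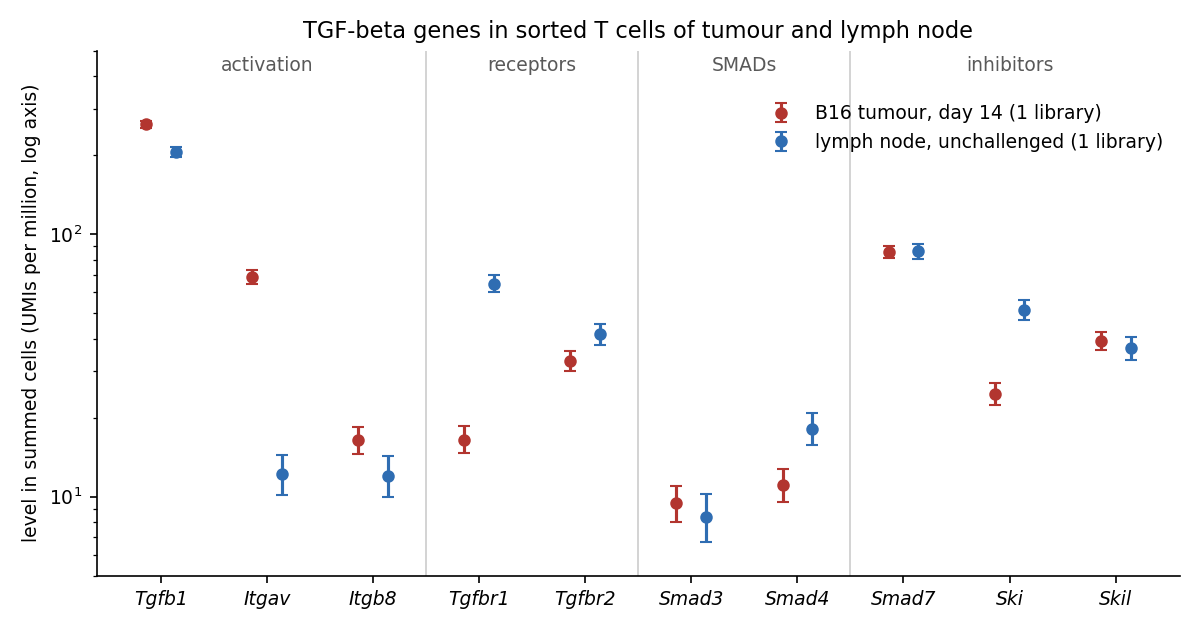
Level of each of the 10 genes in pooled counts (CPM, log axis) in tumour and in lymph node, 1 library each, with exact Poisson 95% intervals as bars. Itgav stands at 68.7 CPM in tumour and 12.2 CPM in lymph node, Tgfbr1 at 16.5 CPM in tumour and 64.8 CPM in lymph node, and Smad7 at 85.5 CPM in tumour and 86.0 CPM in lymph node.

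Tgfb1 (chr7:25687002-25705077, plus strand, GRCm38), which encodes the ligand, was the most abundant member in both tissues. It had 4370 UMIs in tumour cells and 2196 UMIs in lymph node cells, or 262 CPM (254 to 270) in tumour and 206 CPM (197 to 214) in lymph node. The ratio was 1.28 (1.21 to 1.34), below the 2-fold mark, and 1 tumour cell held up to 22 UMIs of it, against 17 in lymph node. In free RNA it stood at 140 CPM in tumour and 98.8 CPM in lymph node, below the cells of either tissue.

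Itgav (chr2:83724397-83806916, plus strand), the alpha-v chain, had 1145 UMIs in tumour cells and 130 UMIs in lymph node cells. This gave 68.7 CPM (64.8 to 72.8) in tumour and 12.2 CPM (10.2 to 14.5) in lymph node, a ratio of 5.64 (4.70 to 6.82). It was the widest shift among the members, at percentile 97.5 of all genes tested. Cells with 3 or more Itgav UMIs numbered 115 in tumour and 2 in lymph node, where no cell held more than 3. Barcodes of other cell types that the rule left out, which in tumour carried 13153 CPM of melanoma and 1851 CPM of macrophage transcripts, held Itgav at 26.6 CPM (35 UMIs), and tumour free RNA held it at 45.0 CPM, both below the level in the tumour cells of the rule. In the 950 tumour cells and 2179 lymph node cells without any melanoma or macrophage UMI the log2 ratio of Itgav was 2.60, against 2.50 in all cells.

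Itgb8 (chr12:119158022-119238802, minus strand), the beta-8 chain, which pairs only with alpha-v, shifted less than its partner. It had 273 UMIs in tumour cells and 128 UMIs in lymph node cells, or 16.4 CPM (14.5 to 18.4) in tumour and 12.0 CPM (10.0 to 14.2) in lymph node, a ratio of 1.37 (1.10 to 1.70). The pair thus stood at 4.19 Itgav UMIs per Itgb8 UMI in tumour and 1.02 in lymph node. The left-out tumour barcodes held 0 Itgb8 UMIs, with an interval that reaches 2.80 CPM. In lymph node the Itgb8 level of the cells was close to that of free RNA, 12.0 CPM against 11.1 CPM.

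Tgfbr1 (chr4:47353222-47414931, plus strand), the type I receptor kinase, went the other way. It had 275 UMIs in tumour cells and 692 UMIs in lymph node cells, although the tumour cells held more UMIs in all. This gave 16.5 CPM (14.6 to 18.6) in tumour and 64.8 CPM (60.0 to 69.8) in lymph node, 3.93-fold lower in tumour (3.41 to 4.53) and at percentile 1.95 of all genes. Cells with 3 or more Tgfbr1 UMIs numbered 3 in tumour and 42 in lymph node. Free RNA showed the same order between the tissues.

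Tgfbr2 (chr9:116084293-116175360, minus strand), the ligand-binding type II receptor, had 549 UMIs in tumour and 444 UMIs in lymph node. Its level was 32.9 CPM (30.2 to 35.8) in tumour and 41.6 CPM (37.8 to 45.6) in lymph node, 1.26-fold lower in tumour (1.11 to 1.43). The balance of the receptor pair differed between the tissues, with 1.996 Tgfbr2 UMIs per Tgfbr1 UMI in tumour and 0.642 in lymph node.

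The transducers were scarce. Smad3 (chr9:63646767-63757994, minus strand), a receptor substrate, had 157 UMIs in tumour and 89 UMIs in lymph node, or 9.42 CPM (8.00 to 11.01) in tumour and 8.33 CPM (6.69 to 10.3) in lymph node. Its ratio of 1.13 (0.866 to 1.48) includes 1. Smad4 (chr18:73639009-73703780, minus strand), the common partner, stood at 11.04 CPM (9.50 to 12.8) in tumour and 18.2 CPM (15.7 to 20.9) in lymph node, 1.65-fold lower (1.34 to 2.02).

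Smad7 (chr18:75367529-75395935, plus strand), the inhibitory SMAD, was the second member in abundance in both tissues and the one nearest to equality. It had 1425 UMIs in tumour and 919 UMIs in lymph node, or 85.5 CPM (81.1 to 90.0) in tumour and 86.0 CPM (80.6 to 91.8) in lymph node, a ratio of 0.994 (0.914 to 1.08). The corepressor genes differed between each other. Ski (chr4:155154075-155222592, minus strand) stood at 24.7 CPM (22.4 to 27.2) in tumour and 51.5 CPM (47.3 to 56.0) in lymph node, 2.08-fold lower (1.83 to 2.37), and the interval reaches below the 2-fold mark. Skil (chr3:31095058-31122577, plus strand) stood at 39.3 CPM (36.3 to 42.4) in tumour and 36.7 CPM (33.2 to 40.5) in lymph node, a ratio of 1.07 (0.943 to 1.22). There were 0.629 Ski UMIs per Skil UMI in tumour and 1.40 in lymph node.

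These shifts changed the order of the genes within each tissue. Since the 3' chemistry counts a transcript once whatever its length, CPM was compared between genes without dividing by length. In tumour the order was Tgfb1, Smad7, Itgav, Skil, Tgfbr2, Ski, then Tgfbr1 and Itgb8, whose intervals overlap, then Smad4 and Smad3, whose intervals also overlap. In lymph node it was Tgfb1, Smad7, Tgfbr1, Ski, then Tgfbr2 and Skil with overlapping intervals, Smad4, and last Itgav, Itgb8 and Smad3. The intervals of these last genes all overlap. Itgav and Tgfbr1 changed places: there were 4.16 Itgav UMIs per Tgfbr1 UMI in tumour and 0.188 in lymph node.

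Since the tumour cells were sequenced more deeply, shares of cells were compared after thinning every cell to 2500 UMIs, which kept all 1457 tumour cells and 1881 lymph node cells and left out 321 shallower lymph node cells. An Itgav UMI was then found in 16.7% (14.8 to 18.7) of tumour cells and 2.92% (2.21 to 3.79) of lymph node cells. The full-depth shares were 45.4% in tumour and 5.40% in lymph node. For Tgfbr1 the thinned share was 5.15% (4.07 to 6.41) in tumour and 13.9% (12.4 to 15.6) in lymph node, and the full-depth share 16.3% in tumour and 23.4% in lymph node. Of the left-out barcodes thinned alike, 1 of 18 in tumour and 0 of 9 in lymph node held Itgav, and 4 of 18 in tumour and 0 of 9 in lymph node held Tgfbr1. TGF-beta receptors are found on most cell types, so these few barcodes are no standard that lacks Tgfbr1. The tumour share of Tgfbr1 was not above that of these barcodes, which may express the gene themselves. In tumour the Tgfbr1 level of free RNA, 14.3 CPM (10.82 to 18.6), also overlapped that of the cells, whereas in lymph node it was 48.1 CPM (40.2 to 57.1), below the cells.

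Among the other members, Tgfb1 was found at equal depth in 45.7% of tumour cells and 36.4% of lymph node cells (at full depth 82.8% in tumour and 52.6% in lymph node), and Ski in 6.79% of tumour cells and 12.9% of lymph node cells (24.1% and 21.2% at full depth). Full depth thus put the Ski share higher in tumour, the other way from the thinned share and the CPM, and no order is read from it. Smad7 was found at equal depth in 20.5% of tumour cells and 20.7% of lymph node cells. Itgb8 was found in 4.32% of tumour cells and 2.61% of lymph node cells, Tgfbr2 in 9.13% of tumour cells and 10.1% of lymph node cells, and Skil in 9.61% of tumour cells and 8.51% of lymph node cells. Smad3 was found in 2.33% of tumour cells and 2.02% of lymph node cells, and Smad4 in 3.16% of tumour cells and 4.15% of lymph node cells.

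Some of these members were also found outside the cells of the rule. Of the left-out barcodes at the same depth, Tgfb1 was found in 2 of 18 in tumour and 3 of 9 in lymph node, Tgfbr2 in 2 of 18 in tumour and 0 of 9 in lymph node, and Skil in 0 of 18 in tumour and 1 of 9 in lymph node. At that depth no left-out barcode of either tissue held Itgb8, Smad3, Smad4, Smad7 or Ski. At full depth, of the 18 in tumour, 4 held Smad3, 14 Smad4, 8 Smad7, 15 Ski and 0 Itgb8. The levels in these tumour barcodes were 9.11 CPM for Smad3, 14.4 CPM for Smad4, 12.1 CPM for Smad7 and 21.2 CPM for Ski. The Smad4 level was above the 11.04 CPM of the tumour cells. By level, the cells lay above the free RNA of their library with intervals apart for 3 members in tumour (Tgfb1, Itgav and Smad7) and 3 in lymph node (Tgfb1, Tgfbr1 and Smad7), and the intervals overlapped for the other 7 in each tissue. Smad3 was lower in the cells than in free RNA, at 9.42 CPM against 10.74 CPM in tumour and 8.33 CPM against 12.95 CPM in lymph node. Free RNA held the Treg list at 3823 CPM in tumour and 1645 CPM in lymph node, so it carries transcripts of such cells too. Its CPM gives the make-up of free RNA and not its amount in a cell. An overlap therefore cannot tell whether the cells express a gene. The shares count detection, and are not read as the share of cells that express the gene.

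**Figure D2:**
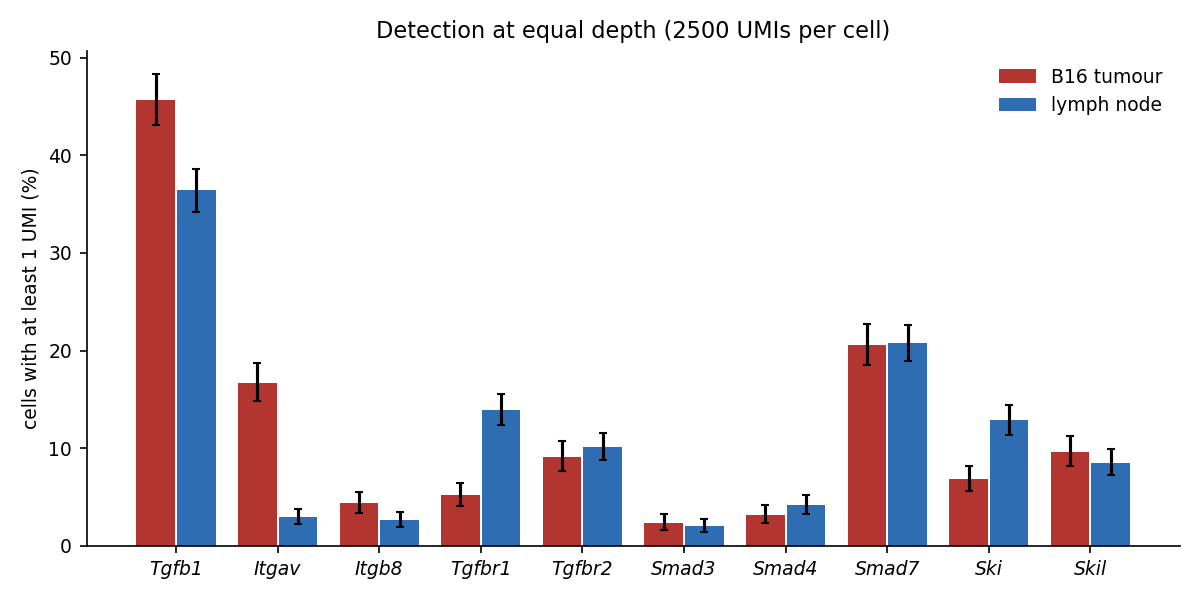
Share of cells with at least 1 UMI of each gene after thinning to 2500 UMIs (percent), in tumour (1457 cells) and in lymph node (1881 cells), with Clopper-Pearson 95% intervals as bars. The intervals lie apart for Itgav (16.7% in tumour, 2.92% in lymph node), Tgfbr1 (5.15% in tumour, 13.9% in lymph node), Ski (6.79% in tumour, 12.9% in lymph node) and Tgfb1 (45.7% in tumour, 36.4% in lymph node).

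Read per cell at equal depth, an integrin gene (Itgav or Itgb8) was found in 20.6% (18.5 to 22.8) of tumour cells and 5.37% (4.39 to 6.49) of lymph node cells. A receptor gene (Tgfbr1 or Tgfbr2) was found in 13.8% (12.1 to 15.7) of tumour cells and 22.5% (20.7 to 24.5) of lymph node cells. Cells with an integrin gene and no receptor gene made up 17.7% in tumour and 3.62% in lymph node, and cells with a receptor gene and no integrin gene 10.9% in tumour and 20.8% in lymph node. Both receptor genes were found together in 7 tumour cells and 28 lymph node cells, close to the 6.85 and 26.5 cells that the product of their shares gives. No member at all was found in 23.6% of tumour cells and 28.4% of lymph node cells.

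Across cells, the members showed little relation to each other. Over the 45 pairs of members, Pearson's r on log values of the thinned cells ran from -0.08 to 0.08 in tumour (1457 cells) and from -0.04 to 0.05 in lymph node (1881 cells), all within 1 library and 1 depth. The highest in tumour was that of Smad7 and Skil, r = 0.08, which were found together in 42 cells where the product of their shares gives 28.7. Itgav and Itgb8, whose products form 1 integrin, were found together in 6 tumour cells where the product gives 10.5, and in 3 lymph node cells where it gives 1.43. The tumour ratio of observed to product, 0.571, was 1.12 under a second random thinning, so that these data give no direction for it. In counts this sparse none of these correlations is a finding.

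The genes whose cell-to-cell pattern in tumour was most like that of Itgb8 were Rgs16 (r = 0.14), Ccl4 (0.12), Pias1 (0.12), Uhmk1 (0.11) and Il10 (0.10), among 4684 genes with a UMI in at least 5% of the 1457 thinned cells. For Itgav they were Tnfrsf9 (0.13), H2-K1 (0.13), Traf1 (0.12), Nfkbia (0.12) and Tnfrsf4 (0.12). For Tgfb1 they were Pfn1 (0.13), Nr4a1 (0.11), Orai1 (0.11), Irf8 (0.10) and Pcif1 (0.10). All of these values are weak, and they describe the order of the genes within this library only.

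To see how the members vary within each tissue, the cells of each library were clustered apart, without the members and the other genes of the pathway. The 6 tumour clusters are called by number. Cluster 1 (673 cells) was led by Ccl5, Gzmb and Lilrb4a, cluster 2 (238 cells) by Rrm2, Hist1h2ap and Tyms, cluster 3 (234 cells) by Ccl4, Mcm2 and Il1r2, cluster 4 (165 cells) by Tcf7, Klf2 and S1pr1, cluster 5 (107 cells) by Ube2c, Cenpf and Cdc20, and cluster 6 (40 cells) by the interferon-induced genes Cxcl10 and Ifit3. Of the 6 lymph node clusters, cluster 1 (804 cells) was led by Igfbp4, Bcl2 and Trib2, cluster 2 (708 cells) by Maf, Icos and S100a4, cluster 3 (336 cells) by Ly6c1, Satb1 and Il7r, cluster 4 (189 cells) by Tnfrsf9, Mbnl3 and Mif, cluster 5 (112 cells) by Ifit3 and Isg15, and cluster 6 (53 cells) by Hist1h2ap, Stmn1 and Ube2c. Their median depth ran from 5491 UMIs in tumour cluster 4 to 21510 UMIs in tumour cluster 2, and from 2892 UMIs in lymph node cluster 3 to 15423 UMIs in lymph node cluster 6.

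Itgav was higher in every tumour cluster than in any lymph node cluster. Its level in tumour clusters 1 to 6 was 93.8, 49.4, 72.0, 39.8, 68.4 and 48.6 CPM, and in lymph node clusters 1 to 6 it was 8.04, 19.3, 8.40, 6.64, 12.3 and 14.3 CPM. The lowest tumour value, in the Tcf7 and Klf2 cluster, was thus above the highest lymph node value, in the Maf and Icos cluster. Tgfbr1 was in the opposite order. It stood at 20.4, 12.4, 16.9, 27.2, 13.1 and 2.86 CPM in tumour clusters 1 to 6 and at 42.8, 101, 28.0, 83.3, 36.8 and 46.1 CPM in lymph node clusters 1 to 6. The highest tumour value, 27.2 CPM (18.1 to 39.3) in the Tcf7 and Klf2 cluster, and the lowest lymph node value, 28.0 CPM (18.9 to 40.0) in the Ly6c1 and Satb1 cluster, cannot be parted by their intervals. At the finer Leiden resolution of 1 the clusters of the tissues overlapped for Tgfbr1, with 32.5 CPM in 1 tumour cluster of 114 cells and 28.6 CPM in the lowest lymph node cluster.

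The highest and lowest Itgb8 clusters lay further apart than the tissues as a whole, as was also so for Tgfbr2, Smad3, Smad4, Smad7 and Skil. Such a span takes the extremes of several clusters, whereas the ratio between tissues sets pooled levels against each other, so the measures are unlike. It stood at 23.7, 10.5, 19.6, 3.88, 12.0 and 28.6 CPM in tumour clusters 1 to 6 and at 2.30, 27.3, 1.87, 10.3, 16.3 and 4.39 CPM in lymph node clusters 1 to 6. In lymph node the Maf and Icos cluster held 92 of the 128 Itgb8 UMIs, at 27.3 CPM (22.0 to 33.5), above the 16.4 CPM of tumour cells as a whole. Among clusters of at least 50 cells the highest Itgb8 level was 6.11 times the lowest in tumour, 23.7 CPM (19.7 to 28.3) in cluster 1 against 3.88 CPM (1.06 to 9.94) in cluster 4. In lymph node it was 14.6 times the lowest. At resolution 1 these spans of Itgb8 were 15.4 in tumour and 34.5 in lymph node, so their size depends on how finely the cells are divided. The same span was 1.25 in tumour and 2.23 in lymph node for Tgfb1. For Itgav it was 2.36 in tumour and 2.91 in lymph node. For Tgfbr1 it was 2.19 in tumour and 3.61 in lymph node, of which the tumour value was 3.90 at resolution 1. In tumour it was 1.98 for Tgfbr2, 3.64 for Smad3, 2.46 for Smad4, 1.96 for Smad7 and 1.41 for Skil. In lymph node it was 1.61 for Tgfbr2, 1.61 for Smad3, 2.63 for Smad4, 3.03 for Smad7 and 2.04 for Skil. The intervals of the extreme clusters overlapped for Smad4 in both tissues, and for Smad3 and Tgfbr2 in lymph node.

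**Figure D3:**
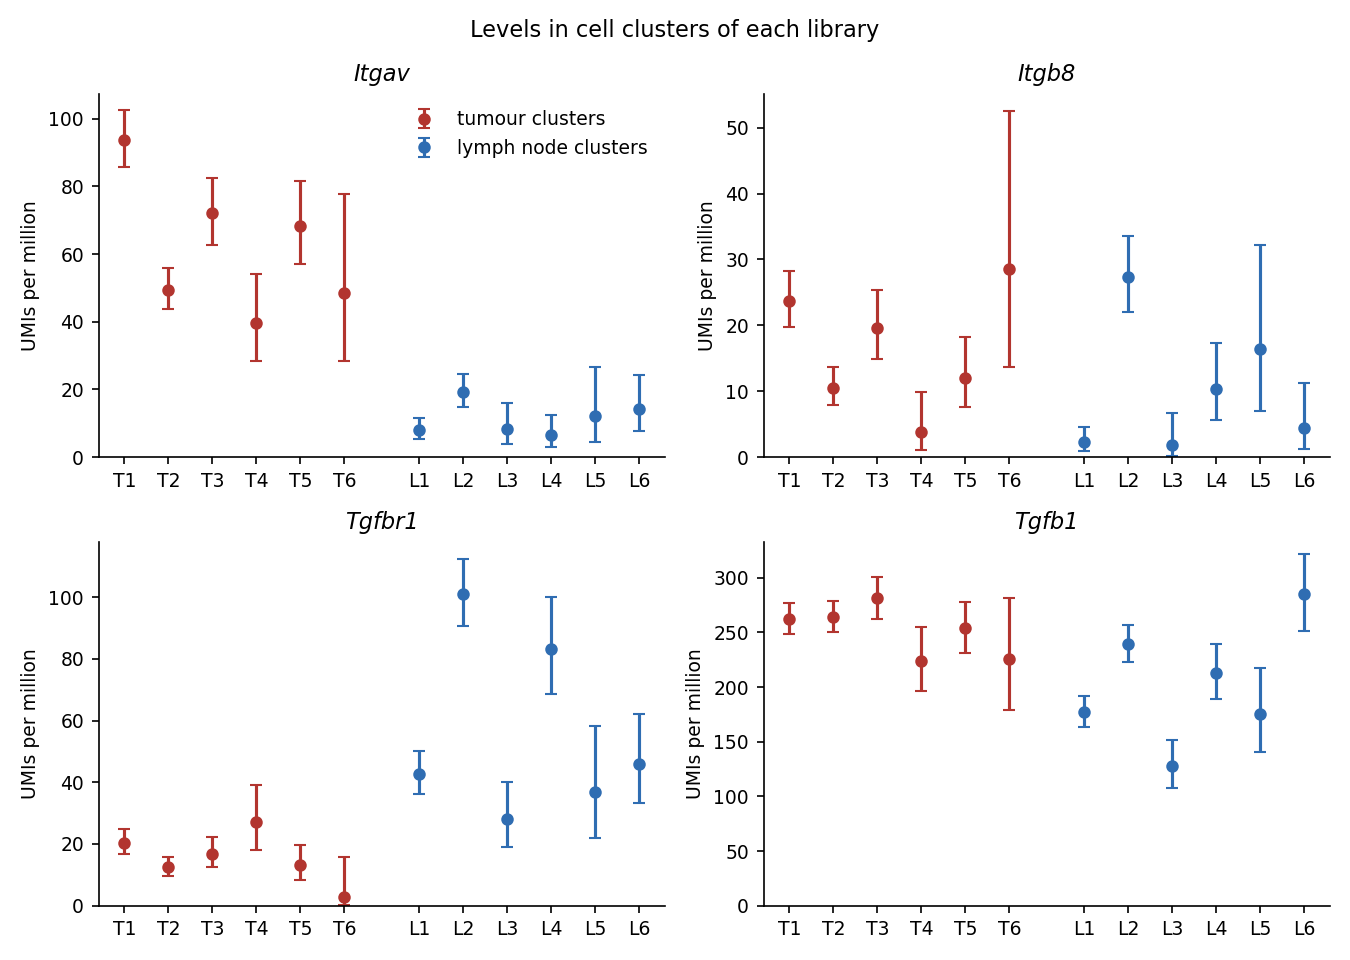
Level of Itgav, Itgb8, Tgfbr1 and Tgfb1 (UMIs scaled as CPM, 1 panel each, with exact Poisson 95% intervals as bars) in the 6 tumour clusters (T) and the 6 lymph node clusters (L), which were built without these genes. Itgav is at 39.8 CPM or more in every tumour cluster and at 19.3 CPM or less in every lymph node cluster, while Itgb8 is at 3.88 CPM in tumour cluster 4 and at 27.3 CPM in lymph node cluster 2.

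Since mitotic cells were far more frequent in tumour, levels were also given within each class. Among tumour cells, those with 3 or more mitotic UMIs (579 cells) had Tgfb1 at 257 CPM and the other 878 cells at 270 CPM, a ratio of 0.953 (0.897 to 1.01). The other 9 members were lower in the mitotic tumour cells, with ratios from 0.578 (Itgb8) to 0.80 (Skil) and whole intervals below 1. In lymph node the 77 mitotic cells had Tgfb1 at 263 CPM and the other 2125 cells at 198 CPM, a ratio of 1.33. The interval of that ratio starts at 1.18. Itgb8, Tgfbr1, Tgfbr2, Smad7, Ski and Skil were lower in the mitotic lymph node cells, with whole intervals below 1. The intervals of Itgav, Smad3 and Smad4 include 1 there. Among the cells with fewer than 3 mitotic UMIs, some of which hold 1 or 2, Itgav was at 85.2 CPM in tumour and 12.0 CPM in lymph node, and Tgfbr1 at 20.7 CPM in tumour and 67.2 CPM in lymph node. The log2 ratio between the tissues was 2.83 for Itgav and -1.70 for Tgfbr1 among these cells, against 2.50 and -1.97 among all cells. Ski stood at 29.0 CPM in tumour and 53.3 CPM in lymph node among them, under the 2-fold mark. Tgfbr2 was nearly level, at 41.7 CPM in tumour and 43.2 CPM in lymph node, a log2 ratio of -0.05 against -0.34 in all cells. Among mitotic cells Tgfb1 was not higher in tumour, at 257 CPM in tumour and 263 CPM in lymph node, with overlapping intervals. Itgav stood at 58.2 CPM in tumour and 13.7 CPM in lymph node among mitotic cells. For Tgfbr1 the levels were 13.8 CPM in tumour and 46.0 CPM in lymph node.

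Cells with a Foxp3 UMI numbered 244 in tumour and 211 in lymph node. Against tumour cells without one, all 10 members had a ratio whose interval includes 1, from 0.723 for Smad4 to 1.27 for Smad3. In lymph node Tgfbr1 was at 80.4 CPM in cells with a Foxp3 UMI and 62.8 CPM in the others, a ratio of 1.28 (1.02 to 1.59), and Tgfb1 at 237 CPM and 202 CPM, a ratio of 1.18 (1.04 to 1.33). Within the cells with a Foxp3 UMI, Itgav stood at 70.2 CPM in tumour and 17.2 CPM in lymph node, Tgfbr1 at 17.5 CPM in tumour and 80.4 CPM in lymph node, and Itgb8 at 17.8 CPM in tumour and 18.1 CPM in lymph node. Tgfb1 was nearly level among them, at 246 CPM in tumour and 237 CPM in lymph node, a log2 ratio of 0.06. Smad4 was past the 2-fold mark in these cells only among the cell sets compared, at 8.39 CPM (25 UMIs) in tumour and 25.4 CPM (31 UMIs) in lymph node, a log2 ratio of -1.60 against -0.72 in all cells.

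Beyond the members, 69 genes of the wider pathway were listed in 6 lists, and 46 of them had at least 20 UMIs in the libraries together. In tumour 10 of these were at least 2-fold higher, 9 were at least 2-fold lower, and 27 lay between. These are 21.7% and 19.6% of the 46 genes, against 14.3% and 9.66% of the 11035 genes of the files that reached the same 20 UMIs. Their median log2 ratio was -0.03, with genes on both sides.

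The lists are small, and each is described by its own counts, to be read against those 14.3% higher and 9.66% lower. Of the 5 activator genes measured, 4 were past the 2-fold mark upward in tumour and 0 downward, with a median log2 ratio of 1.94. The beta-3 chain Itgb3, which also pairs with alpha-v, had 363 UMIs in tumour and 77 UMIs in lymph node, or 21.8 CPM in tumour and 7.21 CPM in lymph node, a ratio of 3.02 (2.36 to 3.92). Free RNA held it at 27.9 CPM in tumour and 11.8 CPM in lymph node, above the cells of both tissues. The beta-5 chain Itgb5 was low, with 38 UMIs in tumour and 6 UMIs in lymph node, a ratio of 4.06 (1.70 to 11.7). The widely shared beta-1 chain Itgb1 stood at 98.1 CPM in tumour and 104 CPM in lymph node, a ratio of 0.944 (0.875 to 1.02), and Itgb6 had 0 UMIs in both. The gelatinase Mmp9, a secreted protease able to process latent TGF-beta, had 304 UMIs in tumour and 7 UMIs in lymph node, a ratio of 27.8 (13.3 to 69.8). Macrophages also make Mmp9 and integrins of the alpha-v family, and the macrophage list was higher in tumour too (8.64 CPM in tumour, 2.06 CPM in lymph node). The left-out tumour barcodes, rich in melanoma and macrophage transcripts, held Mmp9 at 0.759 CPM (1 UMI), against 18.2 CPM in tumour cells. They held Itgb3 at 6.83 CPM, also below the tumour cells. Itgb5 at 3.04 CPM and Itgb1 at 164 CPM were above them (2.28 CPM and 98.1 CPM). The part of macrophage transcripts in these ratios was not tested.

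Among the ligands and the genes of latency, Furin, the protease that cleaves the TGF-beta precursor, was the 1 of 5 genes past the mark. It had 651 UMIs in tumour and 135 UMIs in lymph node, or 39.1 CPM in tumour and 12.6 CPM in lymph node, a ratio of 3.09 (2.56 to 3.75). Tumour Furin was uneven, at 93.2 CPM in the Tcf7 and Klf2 cluster against 30.4 to 42.3 CPM in the other 5. Clustering at the finer resolution placed 69 of its 651 UMIs in 18 cells, at 727 CPM. Lrrc32, which encodes GARP, stood at 33.8 CPM in tumour and 48.2 CPM in lymph node, 1.43-fold lower (1.26 to 1.61). Tgfb3 had 19 UMIs in tumour and 0 UMIs in lymph node, 4.06-fold higher in tumour when the lymph node group is set to 3 counts. The exact interval of its ratio starts at 2.99. Tgfb2 had 0 UMIs in both tissues.

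Of the 6 further receptor genes measured, 3 were at least 2-fold lower in tumour and 0 higher, with a median log2 ratio of -1.26. The coreceptor betaglycan, Tgfbr3, had 1 UMI in tumour and 50 UMIs in lymph node, 78.0-fold lower with a counting interval of 13.4 to 3143. The type I receptor Acvrl1 had 20 UMIs in tumour and 47 UMIs in lymph node, 3.67-fold lower (2.13 to 6.53), and the activin receptor Acvr2a 6 UMIs in tumour and 22 UMIs in lymph node, 5.72-fold lower (2.25 to 17.3). In the SMAD list 1 of 3 genes was past the mark, Smad1 of the bone morphogenetic protein branch, 2.15-fold lower (1.46 to 3.18). Smad2, the second substrate of Tgfbr1, stood at 19.7 CPM in tumour and 21.1 CPM in lymph node, a ratio of 0.934 (0.786 to 1.11).

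Among 17 regulators, 1 was at least 2-fold higher in tumour and 3 lower. The higher one was Bambi, a decoy receptor, with 65 UMIs in tumour and 9 UMIs in lymph node, a ratio of 4.63 (2.29 to 10.57). Its 3.90 CPM in the tumour cells were below the 8.44 CPM of tumour free RNA and the 31.9 CPM of the left-out tumour barcodes, 13 of 18 of which held it, and the part of free RNA in its ratio was not tested. The lower ones were Ldlrad4, which holds SMAD2 and SMAD3 away from the receptor, at 8.34 CPM in tumour and 33.5 CPM in lymph node, 4.02-fold lower (3.30 to 4.93), and the ubiquitin ligases Nedd4l, 5.20-fold lower (2.41 to 12.5), and Smurf2, 2.54-fold lower (1.89 to 3.45).

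Genes known as TGF-beta targets in some cell types went both ways, with 4 of 10 at least 2-fold higher in tumour, 2 lower and 4 between. Itgae, the CD103 integrin chain, stood at 12.9 CPM in tumour and 38.9 CPM in lymph node, 3.01-fold lower (2.55 to 3.57), and the lymph node Maf and Icos cluster held it at 89.7 CPM. Id3, a helix-loop-helix inhibitor, stood at 5.04 CPM in tumour and 255 CPM in lymph node, 50.6-fold lower (40.7 to 63.6). Higher in tumour were the cell cycle inhibitors Cdkn1a, with 1528 UMIs in tumour and 16 UMIs in lymph node and a ratio of 61.2 (37.6 to 107), and Cdkn2b, with 53 UMIs in tumour and 1 UMI in lymph node and a ratio of 34.0 (5.84 to 1366). Junb, with a ratio of 5.18 (4.95 to 5.42), and Gadd45b, with a ratio of 7.49 (6.48 to 8.71), were also higher, and all 4 respond to many other signals. The left-out tumour barcodes held Cdkn1a at 231 CPM, in 14 of 18 of them, above the 91.7 CPM of the tumour cells. They held Junb at 201 CPM and Gadd45b at 22.8 CPM, below the tumour cells (1019 CPM and 138 CPM), and 0 UMIs of Cdkn2b. The part of other cell types in the Cdkn1a ratio was not tested.

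Levels in free RNA were set beside those of the wider genes too. Of the 8 whose whole interval lay beyond 2-fold upward, tumour cells held 3 above tumour free RNA (Furin, Mmp9 and Cdkn1a) and 5 below it (Itgb3, Bambi, Cdkn2b, Junb and Gadd45b). Of the 7 beyond 2-fold downward, lymph node cells held 4 above lymph node free RNA (Tgfbr3, Acvrl1, Ldlrad4 and Itgae) and 3 below it (Acvr2a, Nedd4l and Id3). A level below that of free RNA does not mark a gene as absent from the cells. At full depth Junb was found in 95.6% of tumour cells and Id3 in 52.6% of lymph node cells. The part of free RNA in these ratios was not tested.

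**Figure D4:**
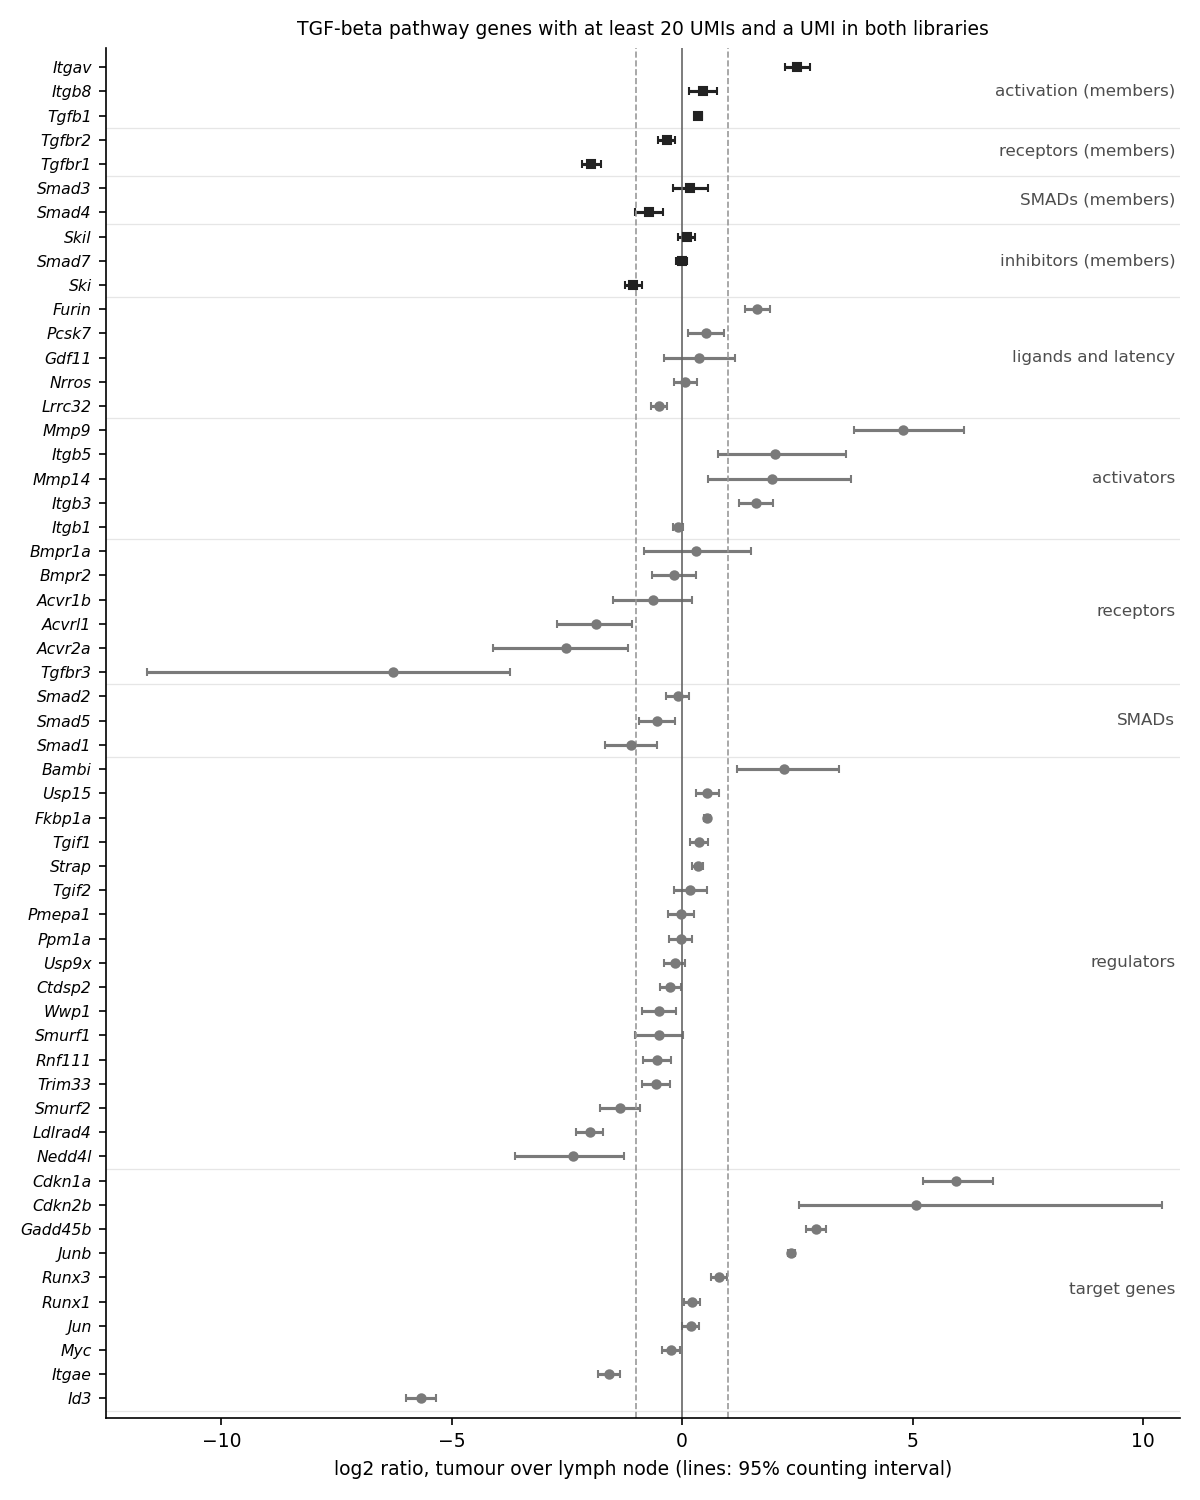
Ratio of tumour to lymph node (log2, with exact 95% intervals) for the members and the wider pathway genes with at least 20 UMIs and a UMI in both libraries, grouped by role, with dashed lines at 2-fold each way. The activator genes sit to the right of 0 apart from Itgb1 (ratio 0.944), and the receptor genes to the left apart from 1 gene, while regulators and targets lie on both sides.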

How the data were processed

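UMI counts per gene and barcode were deposited by the authors as raw whole numbers in 1 unfiltered matrix per library, 1 from tumour and 1 from lymph node. Per the submitters' processing notes, Cell Ranger and mm10 were used (version and annotation: not given in the sources used here). Barcodes needed at least 3834 UMIs in tumour and 1811 UMIs in lymph node, 200 genes, at most 10% mitochondrial UMIs, and fewer than 20 melanoma (Pmel, Dct, Mlana), 3 macrophage (C1qa, C1qb, Lyz2) and 2 B cell (Cd79a, Ms4a1) UMIs. This left out 18 tumour and 11 lymph node barcodes by lineage. Doublets were not called. The tumour library held 23618037 UMIs and the lymph node library 14000036 UMIs, of which the cells hold 70.6% in tumour and 76.3% in lymph node.

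Counts were summed over cells and given as CPM, counts scaled to the cells' total, so deeper cells weigh more. Ratios carry exact conditional-binomial intervals, sums exact Poisson intervals and shares Clopper-Pearson intervals. These treat UMIs or cells as independent and leave out variation between mice, sorts and libraries. A gene at 0 in 1 library was set against 3 counts over the group. Shares and correlations used cells thinned to 2500 UMIs. Clusters used 2000 variable genes, 30 principal components, 15 neighbours and Leiden resolution 0.6. The functions were tested on simulated data. Python 3.11.15, numpy 2.4.6, scipy 1.17.1, pandas 2.3.3, scikit-learn 1.9.0, leidenalg 0.10.2, igraph 0.11.9 and matplotlib 3.10.9 were used.

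The text names all 10 members, each wider pathway gene with at least 20 UMIs whose whole interval lies beyond 2-fold, 11 pathway genes whatever their values, and the 5 genes most like Itgb8, Itgav and Tgfb1. Smad1 and Smurf2 were named after their values were seen. The members and lists were chosen with earlier results of these data known. Ltbp4, whose symbol stands on more than 1 identifier, and Lrrc33, an older name of Nrros, were not used. Coordinates are from GENCODE M21, in which 27645 of 27998 identifiers were found, and promoters from RefSeq. Alternatives covered the cell set, weighting, scaling, minimum count, thinning and clustering.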

Additional observations from a re-analysis of the deposited data

How the results depend on the processing

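No paired analysis was possible because each tissue has 1 library. Of 100 alternative values of the members' log2 ratios, 77 stayed within the counting interval, 23 moved out of it and 0 changed sign with a called value. Itgav ran from 2.03 to 2.83 and Tgfbr1 from -2.20 to -1.60, past the mark in each setting. The count of members at least 2-fold lower was 1 in place of 2, without Ski, with the tumour's UMI minimum in both libraries (log2 -0.96), without mitotic cells (-0.88), in cells with no melanoma or macrophage UMI (-0.94) and in thinned cells (-0.99). It was 3 in cells with a Foxp3 UMI, where Smad4 joined at -1.60. Itgb8 ran from -0.02 in cells with a Foxp3 UMI to 0.80.

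The summed activation genes, at a log2 ratio of 0.60, stood at 0.51 without the lineage limits, 0.76 without mitotic cells, 0.72 without the deepest 5% of cells, 0.30 in cells with a Foxp3 UMI, 0.72 as a mean over cells, 0.72 thinned, and 0.46 centred on the median of all genes. The summed receptor genes, at -1.11, stood at -0.82 without mitotic cells, -1.30 in cells with a Foxp3 UMI, -0.92 as a mean over cells, -0.86 thinned and -1.24 centred. The wider genes at least 2-fold higher numbered 16 without the lineage limits, 6 with a minimum of 100 UMIs and 18 with none, in place of 10; those lower numbered 5 with a minimum of 100 UMIs, in place of 9. The cause of these shifts was not tested. Shares moved beyond their interval in 35 of 60 alternatives, which are all 20 without thinning and 15 of the 40 thinned otherwise. Cluster spans moved by over 1.5 times in 5 of 19 at resolution 1: Itgb8 (15.4 in tumour, 34.5 in lymph node), Tgfbr1 in tumour (3.90), and Smad3 (4.37) and Smad4 (4.05) in lymph node.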
